A study of Mus musculus with 12 samples.

Results

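Oral IIAEK was compared with its vehicle in the jejunum of wild-type mice on 6 of the 12 arrays of the series, 3 arrays per group, chosen by the genotype and dose in the sample labels. IIAEK is a pentapeptide of isoleucine, isoleucine, alanine, glutamate and lysine, which the labels describe as lowering cholesterol. The treated mice were male, wild type and 7 weeks old per the design text, and they were given 600 mg/kg body weight of IIAEK by mouth each day for 14 days in carboxymethylcellulose sodium salt at 5 g/L. The control mice were male, wild type and of the same age and received that vehicle alone. The duration is stated in weeks in a source field of the treated samples but in days elsewhere in the labels, and the latter is used here. Jejunum was taken after 8 h without food and placed in RNAlater. The labels name no strain, and beyond the number per group they do not say that the samples are separate animals, so p-values measure the spread between these samples. The other 6 arrays came from male IAP knockout mice (Akp3-/-) on the same treatments. They entered the estimate of the spread and a test of whether the response differed between genotypes.

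The jejunum absorbs most nutrients. Its enterocytes carry peptidases, disaccharidases and alkaline phosphatases on the brush border, take up sterol through Npc1l1, return it to the lumen through Abcg5 and Abcg8, and export fat in chylomicrons. Beneath the epithelium lie fibroblasts, vessels, lymphoid follicles, enteric neurons and smooth muscle, and many epithelial genes follow the daily clock. In bulk tissue fewer cells of a type and less RNA per cell cannot be told apart.

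Levels are log2 signals relative to the 75th percentile of each array, so that 0 is that percentile and a difference of 1 is a fold of 2. That percentile corresponded to a signal of 449 to 578 on the 6 arrays, and the share of spots well above background ranged from 61.7% to 66.5%. The number of arrays limits the precision. Enterocyte genes were high on all 6 arrays: Fabp1 lay between 9.12 and 9.53, Apoa4 between 8.73 and 9.40, Sis between 8.42 and 9.13, Vil1 between 7.21 and 7.58 and Lct between 6.98 and 7.95. Markers of other gut regions were lower but not all near the floor. Ileal Slc10a2 lay between -4.74 and -3.23 and Fabp6 between -4.46 and -0.94. Duodenal Pdx1 lay between -5.31 and -1.73, Cybrd1 between -2.57 and -1.64 and Slc40a1 between 0.94 and 2.55. Colonic Car1 lay between -2.04 and -1.38 and Aqp8 between -2.35 and 0.45. The arrays lay on 2 slides, each scanned separately. Replicate 1 of vehicle and of IIAEK in wild type lay on slide 1, and replicates 2 and 3 lay on slide 2.

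Several arrays stood apart. Exocrine pancreas genes were far above the other arrays on IIAEK replicate 3, where the carboxypeptidase Cpa1 was at 8.32 against -3.05 to 0.48 on the other 5. All 15 pancreas genes tested had a positive mean change, with a median of 2.42, but the median was -0.54 without that array. Follicle B cell genes were high on vehicle replicate 3 and IIAEK replicates 2 and 3. The mean deviation of the B cell and plasma cell list on those arrays was 0.96, 1.20 and 0.63, against -1.11 to -0.71 on the other 3. Globin and related red cell genes were high on vehicle replicates 2 and 3, at a mean deviation of 1.20 and 1.16, against -0.82 to -0.12 elsewhere. Vehicle replicates 2 and 3 also stood apart in clock genes, as described below.

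No gene passed the threshold between IIAEK and vehicle in wild type. Of 27560 genes tested, 0 (0%) had a limma adjusted p under 0.05, and the smallest was 0.373. At an unadjusted p under 0.05 there were 1608 genes higher (5.83%) and 1923 lower (6.98%) on IIAEK. The 3 IIAEK arrays lay all above the 3 vehicle arrays in 2945 genes (10.7%) and all below in 3930 (14.3%). The median change over all genes was -0.055, and 43.8% of genes were above 0. For a single gene, groups of 3 and 3 arrays cannot reach a two-sided exact permutation p below 0.1. Without IIAEK replicate 3 the unadjusted counts were 539 higher and 606 lower, and without vehicle replicate 3 they were 782 and 756. Leaving out vehicle replicates 2 and 3 together keeps only vehicle replicate 1, on slide 1, against 3 IIAEK arrays of both slides. Only differences and list medians are therefore given for that setting.

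The changes on the 2 slides had little in common. Across genes the change of replicate 1 on slide 1 and the change of replicates 2 and 3 on slide 2, which share no array, correlated with r = 0.084, and 62.6% of genes had the same sign. Genes are not independent replicates. Of the 46 gene lists described here, 37 had a median of larger size on slide 2 than on slide 1, and 41 had a slide 1 median within 0.25 of 0. Slide 1 holds 1 array against 1, so the error of its values cannot be estimated. Radx and Fez1, measured above background on all 6 arrays and taken from the genes of smallest p, had differences of similar size on both slides. Their groups do not overlap, which fixes the same sign.

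**Figure D1:**
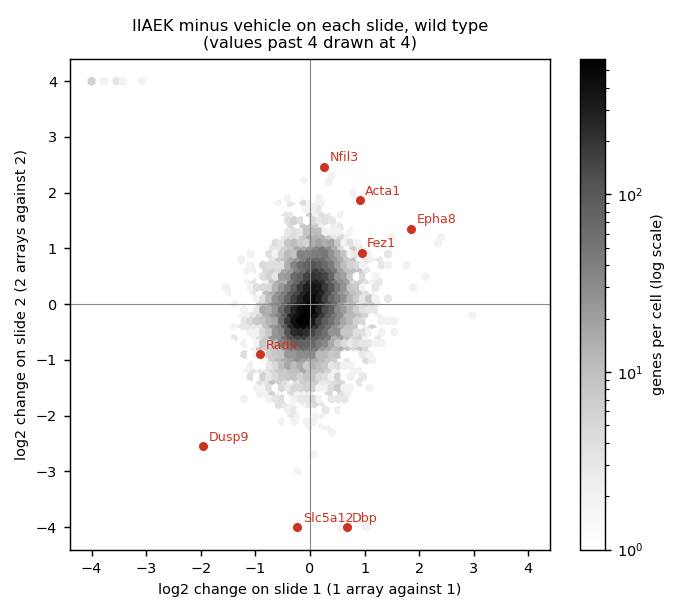
Log2 change, IIAEK minus vehicle, of 27560 genes on slide 1 (x axis, 1 array against 1) and slide 2 (y axis, 2 arrays against 2), drawn as counts of genes per hexagon on a log grey scale, with values past 4 drawn at 4 and 8 genes marked in red. The cloud is upright, with r = 0.084; Dusp9 and Epha8 lie far from 0 on both axes, but rest on arrays where their probes were not well above background, whereas Dbp and Slc5a12 lie much farther from 0 on slide 2 than on slide 1.

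Dusp9 had the smallest p. It encodes a phosphatase that switches off MAP kinases. Its level was -4.54, -2.98 and -3.44 on vehicle replicates 1, 2 and 3 and -6.50, -5.59 and -5.92 on IIAEK. All 3 IIAEK arrays were below every vehicle array, and on all 3 the probe was not well above background. IIAEK was therefore at least 3.13-fold lower, that is, the vehicle mean against the detection limit of the IIAEK arrays or the signal itself where higher. The fitted difference of -2.35 (SE 0.40, n = 3 per group) includes those undetected values and is no measured size. It missed the threshold (limma adjusted p = 0.373) and passed with slide as a block (limma adjusted p = 0.005). On the 6 knockout arrays Dusp9 lay between -4.97 and -3.95, where IIAEK differed from vehicle by 0.27. The lowest value, on knockout vehicle replicate 2, was under that array's detection limit of -4.67, so the 0.27 is no measured size either. Dusp1, a MAP kinase phosphatase of the nucleus, was lower without overlap, with a difference of -0.50 (SE 0.35), while 7 of the 10 MAP kinase phosphatases were above 0.

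The other lower genes of smallest p had varied roles. Slc51b, the beta subunit of the basolateral bile acid exporter, was at 4.29, 4.51 and 4.64 on vehicle and 3.81, 3.65 and 3.46 on IIAEK, with no overlap and a difference of -0.84 (SE 0.18). Aspa, the enzyme that splits N-acetylaspartate, was at 3.87, 4.43 and 4.74 on vehicle and 3.44, 2.79 and 2.24 on IIAEK, a difference of -1.52 (SE 0.31). Radx, which binds single-stranded DNA at replication forks, was at -0.46, -0.78 and -0.68 on vehicle and -1.37, -1.37 and -1.90 on IIAEK. Its difference of -0.91 (SE 0.19) was -0.92 on slide 1 and -0.90 on slide 2, while the weaker second Radx probe was below background on all 6 arrays. Epiregulin, the growth factor encoded by Ereg, differed by -0.97 (SE 0.23) and Socs4, a suppressor of cytokine signalling, by -0.52 (SE 0.13). All 15 shared the adjusted p of 0.373 and had groups that did not overlap.

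The 15 higher genes of smallest p also had varied roles. Acta1, skeletal muscle actin, was at -0.50, -1.24 and -1.03 on vehicle and 0.41, 0.22 and 1.23 on IIAEK, a difference of 1.55 (SE 0.29) that was 0.91 on slide 1 and 1.86 on slide 2. Coq8a, a kinase-like protein of coenzyme Q synthesis in mitochondria, was at 0.35, -0.50 and -0.12 on vehicle and 0.96, 0.78 and 0.92 on IIAEK, a difference of 0.97 (SE 0.21). Fez1, which carries cargo along microtubules in axons, was at -4.24, -4.02 and -4.14 on vehicle and -3.29, -3.45 and -2.86 on IIAEK. Its difference of 0.93 (SE 0.20) was 0.95 on slide 1 and 0.93 on slide 2. The other Fez1 probes, above background on 0 wild-type arrays, gave -0.16 and 0.25. Gng3, a G protein gamma subunit of neurons, differed by 1.43 (SE 0.33), and Slc6a9, a glycine transporter, by 1.04 (SE 0.23). Top1mt, the mitochondrial topoisomerase, differed by 0.96 (SE 0.21), Sox18, a transcription factor of endothelium, by 0.81 (SE 0.19) and Polh, a DNA polymerase that copies past lesions, by 0.65 (SE 0.15). These 8 genes did not overlap between the groups, and none passed the threshold.

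**Figure D2:**
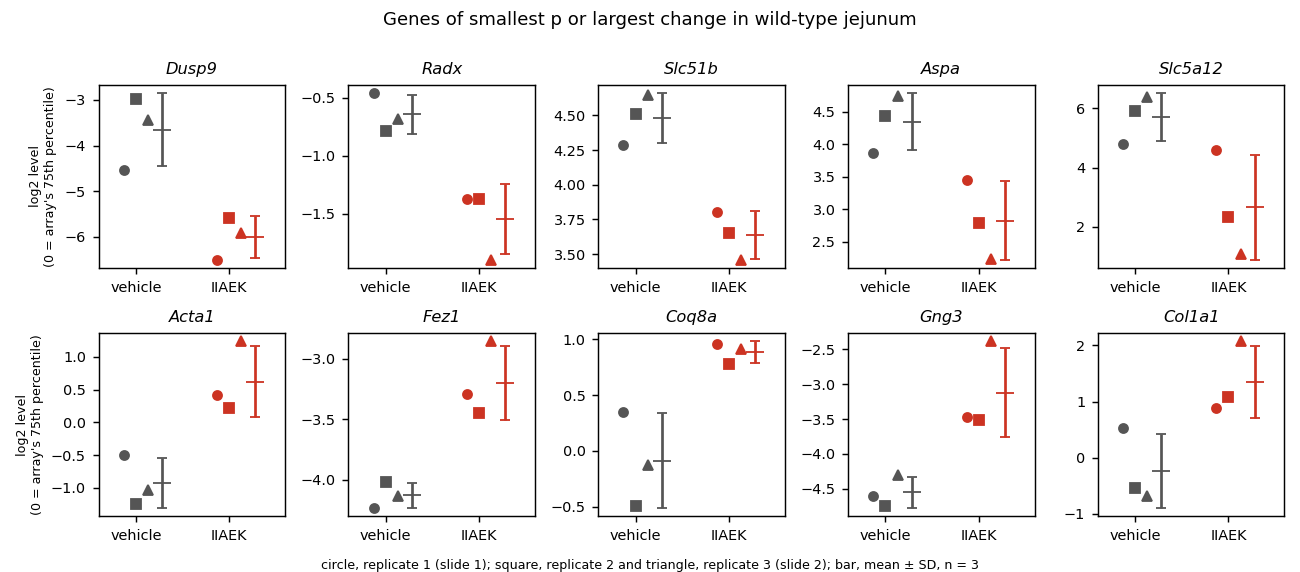
Log2 level of 10 genes on the 6 wild-type arrays (y axis, relative to the array's 75th percentile), vehicle in grey and IIAEK in red, with replicate 1 as a circle, replicate 2 as a square and replicate 3 as a triangle, and bars for mean ± SD (n = 3). The groups do not overlap in any of the 10, and in Slc5a12 and Aspa the circles of the 2 groups lie closer together than the squares and triangles.

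Among characterised genes without overlap at an unadjusted p under 0.05, Slc5a12 had the largest negative difference. This sodium-coupled lactate transporter of the brush border was at 4.81, 5.91 and 6.40 on vehicle and 4.58, 2.32 and 1.09 on IIAEK. Replicate 1 of the 2 groups was almost level, and the difference of -3.04 (SE 0.84) was -0.23 on slide 1 and -4.44 on slide 2. Clec4f, a C-type lectin, was at -2.20, -1.51 and -1.97 on vehicle and -3.56, -4.49 and -5.48 on IIAEK, a difference of -2.62 (SE 0.71), with IIAEK replicate 3 not well above background. Ano3, of the anoctamin family of membrane proteins, was not well above background on any IIAEK array and was at least 2.73-fold lower, although its second probe was below background on all 6 arrays. Bpifb1, a secreted defence protein, was not above background on IIAEK either and was at least 1.86-fold lower.

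The largest positive differences without overlap included genes of signalling, adhesion and secretion. Epha8, an ephrin receptor, differed by 1.52 (SE 0.47), but it was well above background on only 1 of the 3 vehicle arrays. Ajuba, a LIM protein of cell junctions, was above background on no vehicle array and was at least 1.23-fold higher, and Rab26, a GTPase of secretory granules, was at least 1.73-fold higher on the same terms. Of the 45 genes named for the smallest p or the largest change, 40 had the larger change on slide 2. All 45 had the same sign on both slides, but their groups do not overlap, which fixes that in advance. The median size of their changes was 0.55 on slide 1 and 1.35 on slide 2, and 42 were smaller in size without IIAEK replicate 3.

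Clock genes differed sharply among the vehicle arrays. Dbp, a transcription factor that carries the clock's rhythm to other genes, was at 0.37, 5.12 and 4.47 on vehicle and 1.04, 0.29 and 0.96 on IIAEK. Vehicle replicates 2 and 3 were far above the other 4 arrays, and vehicle replicate 1 lay among the IIAEK arrays. The second Dbp probe gave a mean difference of -2.48 against -2.56 (SE 1.09) for the first.

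The same arrays stood apart in other clock genes. Tef, a relative of Dbp, was at 2.83, 5.16 and 4.63 on vehicle and 3.17, 2.54 and 3.05 on IIAEK. Per2, a repressor of the core loop, was at -0.07, 2.77 and 1.72 on vehicle and -0.03, -0.15 and 0.39 on IIAEK. Per3, its relative, was at -3.82, -0.45 and -1.37 on vehicle and -3.38, -3.87 and -2.99 on IIAEK. In each of these genes vehicle replicates 2 and 3 were the 2 highest arrays, with vehicle replicate 1 near or below the IIAEK arrays. Arntl, the activator of the core loop, ran the other way, at 0.71, -1.07 and -0.84 on vehicle and 0.60, 1.34 and 0.81 on IIAEK. Nfil3, a repressor of Dbp target genes, was at 0.52, -0.95 and -0.93 on vehicle and 0.78, 1.57 and 1.49 on IIAEK, with no overlap.

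Of the 14 clock genes tested, 3 were above 0 and 11 below, with a median of -0.40, against -0.055 over all genes. The median was 0.08 on slide 1 and -0.69 on slide 2, and 0.17 without vehicle replicates 2 and 3. Those 2 arrays were left out for their high Dbp, a member of this list, so this move is not independent of the choice. On the knockout arrays Dbp lay at 4.96 on vehicle replicate 3 and 3.67 on IIAEK replicate 3, both on slide 2, and between 2.10 and 2.50 on the other 4. The time of day at which tissue was collected is not given in the sources used here, and its part in these differences was not tested.

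Motifs that clock proteins bind were looked for in the 250 bases before the start of clock genes, in promoter sequences from RefSeq on GRCm38.p6. The D-box, which Dbp, Tef, Hlf and Nfil3 bind, was searched as TTATGTAA, TTACATAA or TTACGTAA, which covers both strands. It was found in 1 of the 12 clock genes with a promoter in that table, Per3, which has 2, and in 1.10% of all genes with a promoter. Among tested genes with a promoter the share was 0.864%. The E-box CACGTG, which Arntl and Clock bind and which reads the same on both strands, was found in Per1, Cry1 and Tef. It was found in 6.86% of all genes with a promoter and in 9.26% of tested genes with a promoter. The Per3 sequence is shown because Per3 was among the genes that stood apart on vehicle replicates 2 and 3. It lies before the start of Per3 on the minus strand of chromosome 4, at chr4:151044776-151044910, and the D-boxes are in capitals.
Per3: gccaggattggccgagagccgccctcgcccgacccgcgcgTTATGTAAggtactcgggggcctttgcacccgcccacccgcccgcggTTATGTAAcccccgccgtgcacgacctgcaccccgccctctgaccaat
Tef, from before a Tef start on the plus strand of chromosome 15, at chr15:81802506-81802591, is shown for its E-box, again in capitals.
Tef: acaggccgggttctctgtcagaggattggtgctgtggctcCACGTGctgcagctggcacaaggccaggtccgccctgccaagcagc
A match of letters is a description and not a measured binding site.

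**Figure D3:**
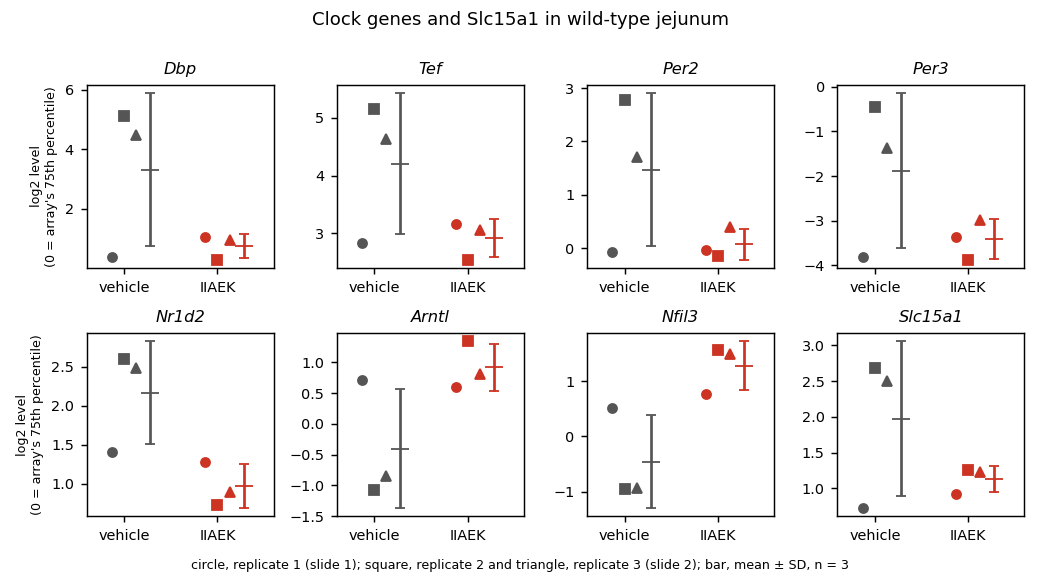
Log2 level of 7 clock genes and the peptide transporter gene Slc15a1 on the 6 wild-type arrays (y axis, relative to the array's 75th percentile), vehicle in grey and IIAEK in red, with replicate 1 as a circle, replicate 2 as a square and replicate 3 as a triangle, and bars for mean ± SD (n = 3). The grey square and triangle lie apart from the grey circle in every panel, and the circle lies near the IIAEK arrays; Dbp is at 5.12 and 4.47 on vehicle replicates 2 and 3 and at 0.37 on vehicle replicate 1.

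A few genes of other lists, chosen after their values were seen, had the same arrays high. Slc15a1, which encodes the peptide transporter PEPT1 that takes up dipeptides and tripeptides, was at 0.72, 2.69 and 2.50 on vehicle and 0.93, 1.25 and 1.22 on IIAEK. Its difference of -0.84 (SE 0.60) was 0.20 on slide 1 and -1.35 on slide 2, and 0.41 without vehicle replicates 2 and 3. Abcb1a, the drug efflux pump P-glycoprotein, was at 3.56, 4.99 and 4.42 on vehicle and 3.56, 2.99 and 2.95 on IIAEK. Slc20a1, a phosphate transporter, was at 0.89, 2.43 and 1.84 on vehicle and 0.80, 0.77 and 0.98 on IIAEK, and Bnip3, a mitochondrial protein of mitophagy, was at 2.80, 3.86 and 3.89 on vehicle and 2.83, 2.46 and 1.87 on IIAEK. In all 4 genes vehicle replicates 2 and 3 were the highest arrays and replicate 1 was level between the groups. None passed the threshold, and the part of the clock genes in these differences was not tested.

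Alkaline phosphatases of the brush border dephosphorylate lipids, nucleotides and bacterial products. Alpi, an intestinal form, was at 5.76, 5.79 and 5.16 on vehicle and 5.92, 6.31 and 6.16 on IIAEK, with no overlap and a difference of 0.56 (SE 0.26). Akp3, the duodenal form that the knockout lacks, was at -3.30, -3.95 and -5.94 on vehicle and -3.89, -1.11 and -1.24 on IIAEK. IIAEK replicates 2 and 3 were high, whereas IIAEK replicate 1 lay among the vehicle arrays, so the difference of 2.32 (SE 0.78) was -0.59 on slide 1 and 3.77 on slide 2. Vehicle replicate 3 was not well above background. On the knockout arrays Akp3 lay between -6.82 and -5.48. Alppl2, a related gene that is also expressed in the embryo, was at -2.44, -2.24 and -3.02 on vehicle and -2.14, -0.92 and -1.12 on IIAEK, a difference of 1.17 (SE 0.31). Alpl, the tissue-nonspecific form, differed by 0.57 (SE 0.35), and none of the 4 passed the threshold.

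Of the 3 fixed duodenal markers, Pdx1 and Slc40a1 shared the high arrays of Akp3 and Cybrd1 did not. Pdx1, a transcription factor of the duodenum, was at -4.25, -3.54 and -5.31 on vehicle and -4.31, -2.82 and -1.73 on IIAEK, highest on IIAEK replicates 2 and 3. Its difference of 1.41 (SE 0.60) was 0.80 without IIAEK replicate 3, the array that was far above the others in exocrine pancreas genes. The part of pancreas tissue in the Pdx1 values was not tested. Slc40a1 was highest on the same 2 arrays, at 1.54, 1.76 and 0.94 on vehicle and 1.14, 2.14 and 2.55 on IIAEK. Cybrd1, the duodenal ferric reductase, was at -1.98, -2.15 and -2.57 on vehicle and -1.77, -1.79 and -1.64 on IIAEK, with no overlap and a difference of 0.50 (SE 0.21). Of the 10 iron handling genes 8 were above 0 and 2 below, with a median of 0.27 that was 0.01 on slide 1 and 0.15 without vehicle replicate 3. Of these, 3 were higher without overlap, against 10.7% of all genes. Where along the jejunum each sample was taken is not given in the sources used here, and its part in the Akp3 values was not tested.

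Genes of sterol uptake and return showed no common direction. Of 14 genes of sterol uptake, esterification and efflux, 7 were above 0 and 7 below, with a median of -0.01. Npc1l1, the sterol importer of the brush border, was at 5.20, 5.21 and 4.90 on vehicle and 5.44, 4.78 and 4.88 on IIAEK, overlapping with a difference of -0.07 (SE 0.28). Abcg5 and Abcg8, the partners of the sterol export pump, differed by -0.08 (SE 0.21) and 0.31 (SE 0.31), and Soat2, which esterifies cholesterol, by 0.10 (SE 0.30). Abca1, which loads cholesterol onto HDL at the basolateral side, was at 2.39, 2.85 and 2.55 on vehicle and 1.996, 1.63 and 2.05 on IIAEK. Its arrays did not overlap, and the difference of -0.70 (SE 0.20) was -0.75 in its second probe. Npc2, which hands cholesterol to Npc1 in lysosomes, was higher without overlap by 0.34 (SE 0.15).

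Scavenger receptors for lipid differed in opposite directions on slide 2. Scarb1, the HDL receptor SR-BI, was at -0.13, -0.77 and -1.04 on vehicle and -0.16, 1.03 and 0.35 on IIAEK, and its difference of 1.05 (SE 0.37) was -0.03 on slide 1. Cd36, the fatty acid translocase, was at 2.05, 3.18 and 3.71 on vehicle and 2.40, 1.50 and -0.33 on IIAEK, and its difference of -1.79 (SE 0.73) was 0.34 on slide 1. In both genes replicate 1 was level between the groups and the groups overlapped.

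Genes of cholesterol synthesis were mixed along the pathway. Of 19 tested, 14 were above 0 and 5 below, with a median of 0.28, and 7 were higher and 2 lower without overlap, where 10.7% and 14.3% of all genes were. Mvd, which makes isopentenyl diphosphate, was at -2.26, -2.67 and -3.08 on vehicle and -2.25, -1.96 and -0.93 on IIAEK, a difference of 0.96 (SE 0.37). Fdps, farnesyl diphosphate synthase, differed by 0.79 (SE 0.29) and Pmvk, phosphomevalonate kinase, by 0.48 (SE 0.17). Msmo1, a sterol methyl oxidase, was lower, at 4.22, 4.44 and 4.72 on vehicle and 3.81, 3.59 and 2.85 on IIAEK, a difference of -1.04 (SE 0.29). Idi1, which isomerises isopentenyl diphosphate, differed by -0.53 (SE 0.22). Hmgcs1, the cytosolic synthase early in the pathway, differed by 0.00 (SE 0.18). The list median was 0.05 on slide 1 and 0.44 on slide 2. It was 0.15 without vehicle replicate 3 and 0.45 without vehicle replicate 1.

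Fatty acid synthesis and fat export leaned in opposite directions. Of 16 genes of fatty acid synthesis and desaturation, 15 were above 0, with a median of 0.33. That median was 0.04 on slide 1, 0.21 without vehicle replicate 3 and 0.10 without vehicle replicates 2 and 3. Only 2 were higher without overlap, near the 10.7% of all genes. They were Acly, which makes cytosolic acetyl-CoA, with a difference of 0.49 (SE 0.21), and the desaturase Fads2, with 0.77 (SE 0.28). Fasn, fatty acid synthase, was at 2.002, 1.61 and 1.09 on vehicle and 1.90, 2.96 and 3.21 on IIAEK, with replicate 1 level between the groups. Of 18 genes of triglyceride synthesis and chylomicron assembly, 4 were above 0 and 14 below, with a median of -0.23 that was -0.05 without IIAEK replicate 3. Sar1b, the GTPase that packs chylomicrons for transport, was at 5.22, 5.01 and 5.26 on vehicle and 4.74, 4.71 and 4.17 on IIAEK, a difference of -0.62 (SE 0.23). Fabp2, the intestinal fatty acid binding protein, was lower without overlap by -0.35 (SE 0.14), and Apob and Mttp, which build the particle, differed by -0.22 (SE 0.15) and -0.05 (SE 0.22).

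Brush border peptidases, which finish the digestion of dietary peptides, were lower on most IIAEK arrays. Of 12 tested, 1 was above 0 and 11 below, with a median of -0.66, and 4 were lower without overlap, against 14.3% of all genes. Enpep, glutamyl aminopeptidase, was at 4.51, 5.39 and 5.40 on vehicle and 4.43, 3.76 and 3.41 on IIAEK, a difference of -1.24 (SE 0.33). Dpp4, which removes dipeptides ending in proline, was at 4.77, 5.22 and 5.51 on vehicle and 4.48, 4.03 and 3.66 on IIAEK, a difference of -1.11 (SE 0.30). In both genes the groups did not overlap, and replicate 1 of the 2 groups lay closest together. Mme, the endopeptidase neprilysin, differed by -0.91 (SE 0.34), Mep1a, a meprin subunit, by -0.84 (SE 0.32) and Anpep, aminopeptidase N, by -0.43 (SE 0.29).

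The peptidase list was level on slide 1, with a median of 0.06, 7 genes above 0 and 5 below. On slide 2 the median was -1.03, with 1 gene above 0 and 11 below. It was -0.49 without IIAEK replicate 3 and -0.47 without vehicle replicates 2 and 3. Tmprss15, the enteropeptidase that activates trypsinogen and is typical of the duodenum, was the member above 0, at 0.38 (SE 0.65). Disaccharidases and sugar transporters had a median of -0.28, with 2 above 0 and 9 below. That median was 0.06 on slide 1 and -0.11 without vehicle replicate 2. Sis, sucrase-isomaltase, was at 9.12, 8.99 and 9.13 on vehicle and 8.89, 8.73 and 8.42 on IIAEK, a difference of -0.40 (SE 0.15). Peptide and amino acid transporters had a median of -0.19, with 1 above 0 and 13 below. On slide 1 that list had 12 above 0 and 2 below, and its median was -0.12 without vehicle replicate 2 and -0.01 without vehicle replicates 2 and 3.

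Smooth muscle genes were higher on IIAEK replicates 2 and 3 than on vehicle replicates 2 and 3. All 17 tested were above 0, with a median of 0.80, and 9 were higher without overlap, against 10.7% of all genes. Acta2, smooth muscle actin, was at 4.56, 3.58 and 3.94 on vehicle and 4.89, 4.89 and 5.75 on IIAEK, a difference of 1.15 (SE 0.30) that was 0.47 and 1.01 in its other probes. Des, the intermediate filament protein desmin, was at -0.46, -0.83 and -0.64 on vehicle and -0.11, 0.59 and 1.14 on IIAEK. Myh11, smooth muscle myosin heavy chain, was at 1.12, 0.56 and 0.64 on vehicle and 1.24, 1.71 and 2.50 on IIAEK. In Myh11 replicate 1 of both groups lay between the vehicle and IIAEK arrays of slide 2. Tpm2, a tropomyosin, differed by 1.19 (SE 0.33), but by 0.31 in its other probe, which was above background on all 6 arrays. Myl9, the regulatory light chain, differed by 0.80 (SE 0.25) and Myocd, the coactivator that drives these genes, by 0.61 (SE 0.23).

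The per-array medians of the 17 smooth muscle genes, as deviations from each gene's mean over the 6 arrays, were -0.04, -0.78 and -0.44 on vehicle and -0.01, 0.35 and 0.82 on IIAEK. The list median was 0.04 on slide 1 and 1.15 on slide 2, 0.59 without IIAEK replicate 3 and 0.45 without vehicle replicates 2 and 3. The pancreas genes were highest on the array with the highest smooth muscle median, and vehicle replicate 2, the lowest in smooth muscle, was also lowest in mesothelium and fat genes. The mean deviation of the mesothelium list was 0.88, -1.67 and 0.11 on vehicle and 0.53, -0.27 and 0.41 on IIAEK, and its median change of 0.64 was -0.31 without vehicle replicate 2. That of the adipocyte and mesenteric fat list was 0.03, -1.12 and -0.16 on vehicle and -0.20, 1.14 and 0.31 on IIAEK, with a median change of 0.68. The part of adjoining tissue in the muscle and matrix values was not tested. The CArG box, the motif that serum response factor binds and that reads the same on both strands, was found in the 250 bases before the start in 1 of the 13 smooth muscle genes with a RefSeq promoter, Myl9, and in 1.62% of all genes with a promoter. The Myl9 sequence, on the plus strand of chromosome 2 at chr2:156775263-156775352 on GRCm38.p6, is shown with the CArG box in capitals.
Myl9: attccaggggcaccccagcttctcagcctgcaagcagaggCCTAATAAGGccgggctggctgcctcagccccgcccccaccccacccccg

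Fibroblast and matrix genes followed a similar order of arrays. Of 17 tested, 15 were above 0 and 2 below, with a median of 0.51, and 7 were higher without overlap, against 10.7% of all genes. Col1a1, a chain of type I collagen, was at 0.52, -0.54 and -0.69 on vehicle and 0.88, 1.08 and 2.07 on IIAEK, a difference of 1.58 (SE 0.50). Sparc, a collagen-binding matrix protein, was at 4.46, 3.39 and 3.51 on vehicle and 4.53, 4.97 and 5.54 on IIAEK, a difference of 1.23 (SE 0.43). Vehicle replicates 2 and 3 were the lowest arrays in both genes, and replicate 1 was nearly level in Sparc. Dcn, decorin, which fibroblasts also make in abundance, differed by -0.27 (SE 0.24) and Postn, periostin, by -0.03 (SE 0.38). The list median was 0.05 on slide 1 and 0.96 on slide 2, and 0.18 without vehicle replicates 2 and 3.

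**Figure D4:**
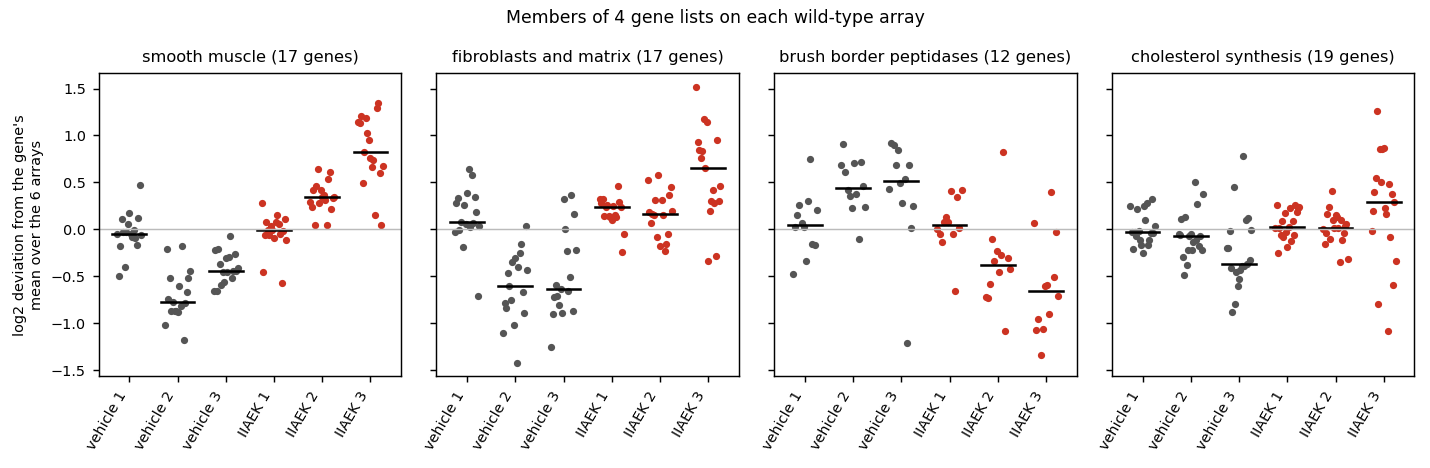
Log2 deviation of each tested gene from its mean over the 6 wild-type arrays (y axis), for 17 smooth muscle, 17 fibroblast and matrix, 12 brush border peptidase and 19 cholesterol synthesis genes, with 1 point per gene, vehicle arrays in grey, IIAEK arrays in red and black bars at the median. The smooth muscle medians of replicate 1 are -0.04 and -0.01, while those of replicates 2 and 3 lie apart. In cholesterol synthesis the medians on vehicle and IIAEK are -0.03 and 0.03 for replicate 1 and -0.07 and 0.02 for replicate 2.

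Enteric neuron genes showed higher values that were present on slide 1 as well. Of 13 neuron and glia genes 10 were above 0, with a median of 0.32, which was 0.18 on slide 1 and 0.38 on slide 2. Stmn2, a microtubule regulator of neurons, was at 0.21, -0.13 and 0.34 on vehicle and 0.56, 0.70 and 0.92 on IIAEK, a difference of 0.59 (SE 0.15). Prph, the neuronal filament peripherin, differed by 0.68 (SE 0.20) and Gap43, a protein of growing axons, by 0.69 (SE 0.21), both without overlap. The pan-neuronal gene Elavl4 differed by -0.09 (SE 0.29) and the transmitter gene Vip by -0.37 (SE 0.20). Endothelial genes had a median of 0.25, with 9 of 12 above 0, and 0.11 without IIAEK replicate 3.

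Of 20 DNA replication genes, 8 were higher and 3 lower without overlap, against 10.7% and 14.3% of all genes. Mcm5, of the replicative helicase, was at 0.08, 0.29 and -0.03 on vehicle and 0.63, 0.64 and 1.71 on IIAEK, a difference of 0.88 (SE 0.33). Other members higher without overlap were the helicase subunits Mcm3, with a difference of 0.80 (SE 0.28), and Mcm7, with 0.65 (SE 0.26). Cdc45, which joins the helicase, differed by 0.69 (SE 0.29), Cdc6, which loads it, by 0.50 (SE 0.20) and Chaf1a, a histone chaperone, by 0.55 (SE 0.22). Tyms and Rfc4, for thymidylate synthesis and clamp loading, were lower without overlap, with differences of -0.18 (SE 0.16) and -0.25 (SE 0.18). Over the list, 12 were above 0 and 8 below, with a median of 0.28 that was 0.06 without IIAEK replicate 3. Of 18 mitosis genes, 14 were above 0 with a median of 0.29, and 0.11 without that array.

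Among secretory and barrier genes, hormones and claudins differed. Ghrl, which encodes ghrelin, was at 4.67, 4.93 and 4.77 on vehicle and 4.59, 3.76 and 3.74 on IIAEK, a difference of -0.75 (SE 0.22). Neurod1, a transcription factor of enteroendocrine cells, was at -0.63, -0.57 and -0.78 on vehicle and -1.07, -1.22 and -1.29 on IIAEK, with a difference of -0.44 on slide 1 and -0.58 on slide 2. Of 15 enteroendocrine genes 5 were lower and 2 higher without overlap, against 14.3% and 10.7% of all genes, the latter being Cck, cholecystokinin, at 0.30 (SE 0.24) and Pyy, peptide YY, at 0.78 (SE 0.63). Cldn2, the claudin that forms pores for cations, was at 0.96, 1.002 and 0.49 on vehicle and 1.37, 1.59 and 2.01 on IIAEK, a difference of 0.84 (SE 0.31). Cldn3, a sealing claudin, differed by 0.47 (SE 0.21) and Tjp3, a junction scaffold, by 0.67 (SE 0.25), and in all 4 of 14 tight junction genes were higher without overlap and 0 lower, against the same shares.

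Fatty acid oxidation genes differed between slides in direction. Cyp4a10, a fatty acid hydroxylase and PPARA target, was at -0.05, 1.21 and 1.78 on vehicle and 1.04, -0.56 and -1.93 on IIAEK, so that its difference was 1.08 on slide 1 and -2.74 on slide 2. On slide 1, 17 of the 20 PPARA targets were above 0, and on slide 2, 7 were.

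Immune lists differed in direction. Of 18 interferon-stimulated genes 14 were above 0, with a median of 0.22 that was -0.22 on slide 1, 0.42 on slide 2 and 0.03 without IIAEK replicate 2, and 0 were free of overlap in either direction. T cell and intraepithelial lymphocyte genes had a median of -0.27, with Gzma, granzyme A, lower without overlap by -0.84 (SE 0.29). That median was 0.15 on slide 1, -0.08 without vehicle replicate 2 and 0.24 without vehicle replicates 2 and 3. Of 14 macrophage and dendritic cell genes 12 were above 0, with a median of 0.27, and 4 were higher and 1 lower without overlap, against 10.7% and 14.3% of all genes. The 4 were C1qa, a complement gene, with a difference of 0.46 (SE 0.16), the lysosomal marker Cd68, with 0.48 (SE 0.23), the integrin Itgax, with 0.45 (SE 0.29), and the growth factor receptor Flt3, with 0.51 (SE 0.43), and the lower gene was the mannose receptor Mrc1, with -0.17 (SE 0.19). Among epithelial defence cells, Paneth cell genes had a median of -0.24 that was -0.05 without vehicle replicate 1. Of 10 tested, 0 had an unadjusted p under 0.05 and 3 were lower without overlap, against 14.3% of all genes. Among the 3 was Lyz1, lysozyme, by -0.26 (SE 0.13). None passed the threshold.

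**Figure D5:**
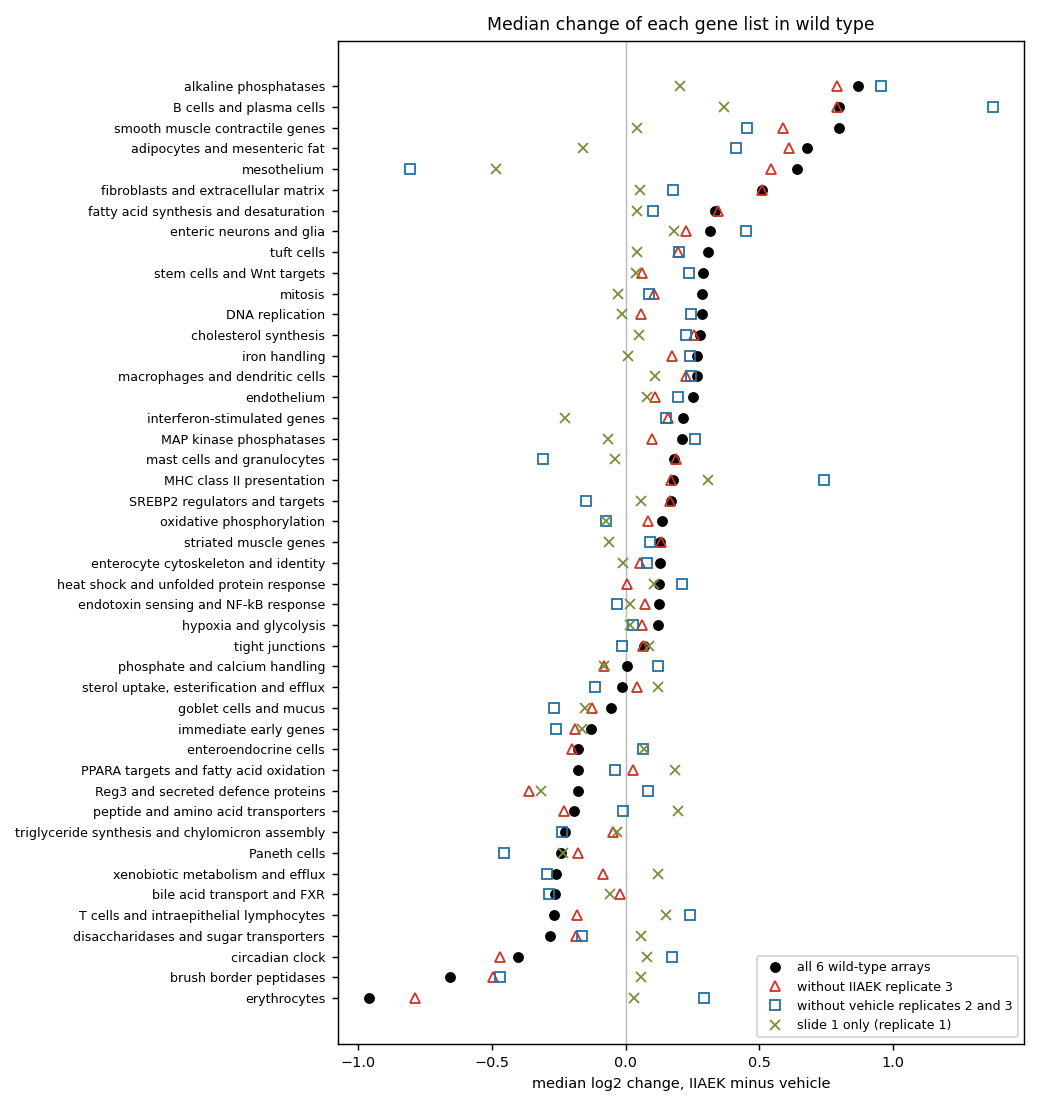
Median log2 change, IIAEK minus vehicle (x axis), of 45 gene lists (y axis; the exocrine pancreas list, at 2.42, is left out), over all 6 wild-type arrays (black circles), without IIAEK replicate 3 (red triangles), without vehicle replicates 2 and 3 (blue squares) and on slide 1 alone (green crosses). Most crosses lie near 0, and the circadian clock list moves from -0.40 over all arrays to 0.17 without vehicle replicates 2 and 3. Those 2 arrays were left out for their high Dbp, a member of the clock list, and the squares rest on 1 vehicle array.

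The response in wild type was set against that in the knockout, which has its own vehicle and IIAEK arrays. In both knockout groups replicates 1 and 2 lay on slide 1 and replicate 3 on slide 2, so the mix of slides differed from that in wild type. In the test of the difference between genotypes 0 of 27560 genes (0%) had a limma adjusted p under 0.05, the smallest being 0.166, and 4189 (15.2%) had an unadjusted p under 0.05. Of the 45 genes named above for smallest p or largest change, which were chosen on the wild-type difference that enters this test, 39 were among the latter. In the knockout Acta1 differed by -0.10, Slc51b by 0.04, Coq8a by -0.13 and Radx by 0.46. The median of the smooth muscle list was 0.01 in the knockout, that of the fibroblast list -0.04 and that of the peptidase list 0.34. On slide 1 alone the wild-type medians of these lists were 0.04, 0.05 and 0.06. The part of the slides in the contrast of these medians between genotypes was not tested. Across genes the wild-type and knockout changes, which share no array, correlated with r = -0.29.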

How the data were processed

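Total RNA was labelled with Cy3 per the labels and hybridised to mouse arrays made by Agilent, with 1 colour. Per the file headers, Feature Extraction 10.7.3.1 gave each spot a processed signal, an intensity with background subtracted by the authors' software and no scaling between arrays. The authors' deposited value table is in log2 and tracked the scaled values here after centring each probe over the 12 arrays (r rounds to 1 on every array); its scaling and centring are not stated in the sources used here. Here, outlier spots (0 to 4 per wild-type array) were left out, log2 signals were averaged per probe and the 75th percentile of each array was subtracted. RefSeq accessions named 32994 of 56605 probes. The brightest probe stood for a gene, which was tested if in some group all 3 arrays showed it well above background, giving 27560 genes, 15809 of them named. The 4 group means were fitted over 12 arrays with limma 3.58.1 in R 4.3.3 (two-sided, Benjamini-Hochberg over all genes, threshold 0.05). The fit was tested on simulated data with independent noise per gene. Those data hold no slide or shared tissue effects, so that check does not cover such effects here. SE is limma's. Gene lists and members were chosen with earlier results of these data known. Named genes were the alkaline phosphatases, 12 sterol and peptide genes, the 15 higher and 15 lower characterised genes of smallest p, the 10 largest differences each way without overlap at an unadjusted p under 0.05, and the leading members of lists; Pdx1, from the fixed duodenal markers, and list members shown for contrast were added after their values were seen. Some genes the rule takes are given only within counts. Replicate numbers were not treated as pairs in the main fit. Deviations of same-numbered wild-type arrays correlated at 0.025, -0.139 and -0.252. With 3 arrays per group these deviations are tied to each other, so they cannot show whether samples were paired. Some genes of the lists are not reported here.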

Additional observations from a re-analysis of the deposited data

How the results depend on the processing

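Alternatives covered the scaling, background correction, filter, probe choice, variance model, slide and each array, and 3 were chosen after seeing the data. They were leaving out the 2 arrays highest in pancreas genes, leaving out vehicle replicates 2 and 3, and the Dbp level as a covariate. Of the 2 pancreas arrays, only IIAEK replicate 3 is wild type, and the other is a knockout array. Vehicle replicates 2 and 3 were the vehicle arrays highest in Dbp, and without them 1 vehicle array is left. The count of genes past the adjusted threshold was 0 over all arrays, 1 with slide as a block (Dusp9), 9 on slide 2 alone (among them Dbp, Nfil3 and Ano3) and 0 to 1 without 1 array at a time, the 1 being Pramel34 without IIAEK replicate 1. The count for the genotype difference was 1 with slide as a block, 4 on slide 2 alone and 1910 with array weights. Genes with an unadjusted p under 0.05 numbered 2501 higher on slide 2 alone, 3089 higher and 3760 lower with array weights, 627 and 787 without the 2 pancreas arrays, 392 and 256 without vehicle replicates 2 and 3, and 746 higher with the Dbp covariate. Without 1 array at a time they ranged from 539 to 2038 higher and from 606 to 2556 lower. The replicate block gave 1637 higher, 1922 lower and 0 past the adjusted threshold, and it changed no call. List medians moved to -1.03 for peptidases and 0.96 for fibroblasts on slide 2 alone. The chylomicron median was -0.046 without the 2 pancreas arrays, the same as without IIAEK replicate 3 alone. The clock median was 0.17 without vehicle replicates 2 and 3 and 0.16 with the Dbp covariate, but both settings were chosen by Dbp, a member of that list. Without 1 array at a time the medians ranged from -0.89 to -0.49 for peptidases, 0.15 to 0.45 for cholesterol synthesis, -0.60 to -0.28 for the clock, 0.44 to 0.88 for fibroblasts, 0.59 to 1 for smooth muscle and -0.32 to -0.046 for chylomicron genes. The causes were not tested. Of 61 named genes, 7 changed sign, among them Abcg5, Abcg8, Mttp, Npc1l1, Slc15a1 and Soat2, in 24 of 1632 gene and setting pairs. Probes below background limit Dusp9, Ano3, Bpifb1, Ajuba and Rab26 to bounds, and Epha8, Akp3, Clec4f, Pdx1 and Pyy were below it on 1 or 2 arrays of a group.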
